A study of Mus musculus with 12 samples.

Results

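The genes described here are the mouse zinc finger protein genes whose symbol is Zfp followed by exactly 3 digits, the first of them 7, 8 or 9. The platform annotation gave such a symbol, alone, to 169 probe sets of 96 genes, out of 18193 genes with a symbol of their own. Of these, 95 are annotated as protein coding and 1, Zfp783, as a long noncoding RNA. They were read in livers of 12 male C57BL6J mice, an inbred laboratory strain, at 30 weeks of age, with 1 array for each mouse. Mice drank water with penicillin at 6.7 mg/L, called low-dose, or received no antibiotic. All began on normal chow with 13.5% of energy from fat, and the high-fat groups moved at 17 weeks to a diet with 45%. Each of the 4 groups has 3 mice and is named by treatment and diet: control chow and penicillin chow, then the high-fat groups of each. An array is named by its group and replicate number. The labels call the mice biological replicates and name no cage, litter or batch.

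Zinc finger proteins of this kind fold short peptide loops around a zinc ion, and arrays of such fingers read DNA sequence. Many carry a KRAB domain, which recruits the corepressor TRIM28 (KAP1) and, through it, the histone methyltransferase SETDB1 and heterochromatin proteins. Such KRAB zinc finger genes lie in tandem clusters of related copies, and many of their products bind transposable elements. The number in the symbol is a naming order and does not denote a shared function.

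Values are log2 expression, so a difference of 1 is a doubling, and each change is a difference of group means with the standard error of the fit. A gene was represented by its probe set with the highest mean. It was tested when it exceeded log2 5.0, the 40th percentile of all values, on at least 3 of the 12 arrays. Of the 96 members 72 passed (75%, against 75.8% of all genes), and 24 did not. Among the 72 members tested, 67 exceeded that value on all 12 arrays. The exceptions were Zfp948 on 10 arrays, Zfp949 and Zfp979 on 9, and Zfp709 and Zfp759 on 3. Just inside the filter lay Zfp759, at 5.01 on the lowest of its 3 brightest arrays, Zfp709 at 5.10 and Zfp949 at 5.26. Just outside lay Zfp980 at 4.87, Zfp940 at 4.84 and Zfp820 at 4.80. Members under the filter include Zfp711, an X-linked gene, which read between 3.05 and 3.49, and Zfp819, between 3.75 and 4.02.

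**Figure D1:**
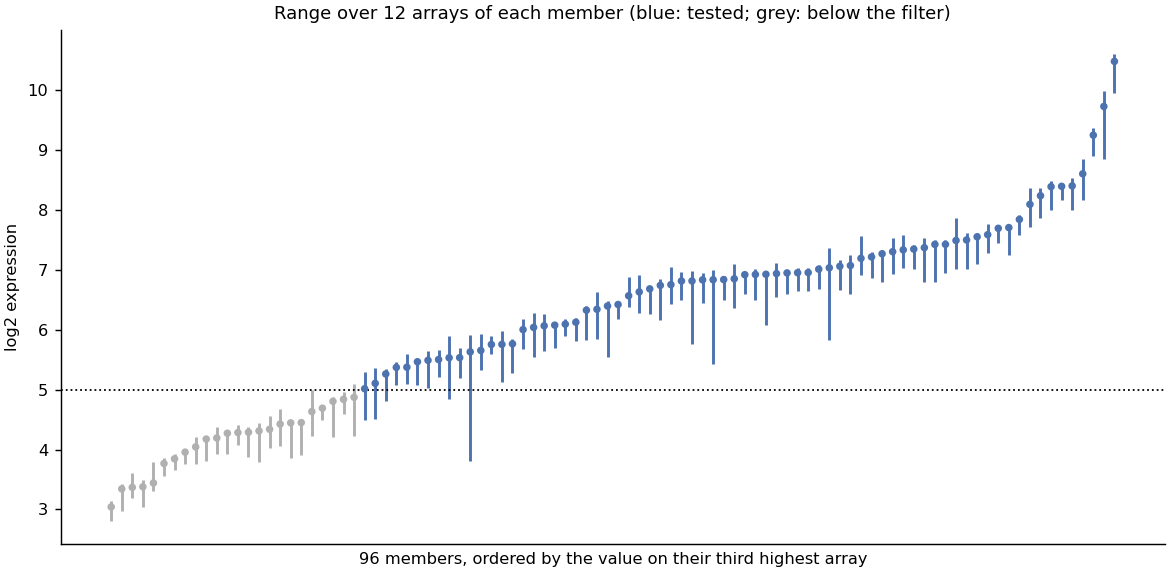
Log2 expression of the 96 members (vertical axis), each drawn as a line from its lowest to its highest array with a dot at the lowest of its 3 brightest arrays, in the order of that dot. The dotted line marks log2 5.0, and the 72 blue members reach it on at least 3 arrays while the 24 grey ones do not. Zfp979 has the long blue line that reaches down to 3.81.

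Signals of different probe sets do not rank genes by amount of RNA, so levels are compared only within a gene. The 6 members with the brightest probe sets were Zfp871, Zfp809, Zfp771, Zfp825, Zfp946 and Zfp707. Zfp809, which recognises a retroviral primer binding site and silences retroviruses in embryonic cells, read 8.93, 9.34 and 9.46 in control chow. It read 9.54, 9.98 and 9.23 in penicillin chow, 8.84, 9.44 and 9.73 in control high-fat and 9.39, 9.73 and 9.07 in penicillin high-fat. All 4 groups of Zfp809 overlapped. Zfp871 read between 9.95 and 10.61, with both extremes inside penicillin chow. Zfp746, also called PARIS, which represses the coactivator gene Ppargc1a, read between 6.87 and 7.30. Its changes were -0.22 for penicillin on chow and -0.01 for diet in control mice, and it passed no test. Zfp703, a transcriptional cofactor best known from mammary epithelium, read between 6.92 and 7.56 and passed no test either. Zfp750, a regulator of epidermal differentiation, read 6.44, 6.08 and 6.26 in control chow and 6.73, 6.53 and 6.71 in penicillin chow. On high-fat diet Zfp750 read 6.92, 6.95 and 6.19 in control and 6.90, 6.54 and 6.94 in penicillin mice. Its chow groups did not overlap, and its largest difference, 0.43 ± 0.19 for diet in control mice, was not called (adjusted p = 0.308). No comparison called Zfp768, between 7.09 and 7.61, Zfp787, between 6.68 and 7.07, Zfp868, between 6.59 and 6.99, or Zfp869, between 6.65 and 7.03. The median SD within a group was 0.16 for tested members and 0.13 for all 13788 genes tested, at median signals of 6.73 and 7.51.

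High-fat feeding was followed by lower signal of 2 members in mice without penicillin, and of 3 members when both treatments were averaged, with 1 member higher. Adjusted p-values here and below come from limma with Benjamini-Hochberg adjustment over 13788 genes, and a call is an adjusted p under 0.05. In control mice 2 of 72 members (2.78%) were called, both lower, where 0.899% of all tested genes were called in either direction and 0.247% lower. Averaged over treatments 4 of 72 were called (5.56%, against 14.5% of all tested genes). Of the 4, 1 was higher and 3 were lower, where 9.63% of all genes were higher and 4.85% lower. In penicillin mice limma called 0 of 72, and 6 had an unadjusted p under 0.05, where 8.32% of all genes were called and 24.5% had such a p. The test for any difference among the 4 groups called 2 of 72, Zfp810 and Zfp979, against 7.78% of all genes. Zfp979 is counted among the calls in control mice, averaged over treatments and among the 4 groups. It lay under the filter on every control high-fat array and was tested only through the other groups. Whether the members' shares differ from those of all genes was not tested.

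Zfp810 read 7.10, 7.03 and 7.36 in control chow and 6.57, 6.90 and 6.43 in penicillin chow. It read 5.83, 5.94 and 6.52 in control high-fat and 6.65, 6.35 and 6.24 in penicillin high-fat. Control chow lay above the other 3 groups without overlap, and the other 3 groups overlapped in part. In control mice Zfp810 fell by 1.07 ± 0.18 on high-fat diet (2.10-fold, adjusted p = 0.0270). In penicillin mice its diet difference was -0.22 ± 0.18 and was not called. Averaged over treatments it fell by 0.64 ± 0.13 (adjusted p = 0.00824). The call in control mice was lost without control chow 1, 2 or 3 or without control high-fat 1 or 2, with adjusted p from 0.0613 to 0.129, while the averaged call stood in all 12 fits that left out 1 array.

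Zfp979 read 5.91, 5.63 and 5.10 in control chow, 5.10, 5.52 and 5.61 in penicillin chow, and 5.01, 5.01 and 5.69 in penicillin high-fat. In control high-fat it read 4.63, 3.81 and 4.22, all under the filter value of 5.0 and below every other array. The gene therefore entered the test through the 9 arrays of the other groups, and its low group lay under the filter. In control mice Zfp979 was called lower on high-fat diet, with a measured difference of -1.32 ± 0.26 (adjusted p = 0.0449). Set against the filter value in place of the low arrays, control chow was at least 1.46-fold higher. The measured difference averaged over treatments was -0.75 ± 0.19 (adjusted p = 0.0202) and takes in the same low arrays. The diet difference in penicillin mice was -0.18 ± 0.26. The call in control mice stood in 3 of the 12 fits that left out 1 array, those that left out replicate 3 of control chow, replicate 1 of penicillin chow or replicate 3 of penicillin high-fat. The averaged call stood in 11 and was lost without penicillin high-fat 1 (adjusted p = 0.0510).

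Zfp710 and Zfp938 moved by less, and their calls rested on both treatments together. Zfp710 read 7.34, 7.37 and 7.34 in control chow and 7.28, 7.30 and 7.42 in penicillin chow. It read 7.07, 7.14 and 7.34 in control high-fat and 7.14, 7.15 and 7.01 in penicillin high-fat. Only control high-fat 3 reached the range of the chow arrays. Averaged over treatments Zfp710 fell by 0.20 ± 0.06 (adjusted p = 0.0414), and its other probe set also stood at -0.20. Zfp938 read 6.40, 6.42 and 6.43 in control chow, 6.39, 6.39 and 6.51 in penicillin chow, 6.54, 6.57 and 6.45 in control high-fat and 6.86, 6.53 and 6.88 in penicillin high-fat. Penicillin high-fat 1 and 3 lay above the other 10 arrays. Averaged over treatments Zfp938 rose by 0.21 ± 0.07 (adjusted p = 0.0493). Of the 12 fits that left out 1 array, the averaged call of Zfp710 stood in 2 and that of Zfp938 in 1.

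**Figure D2:**
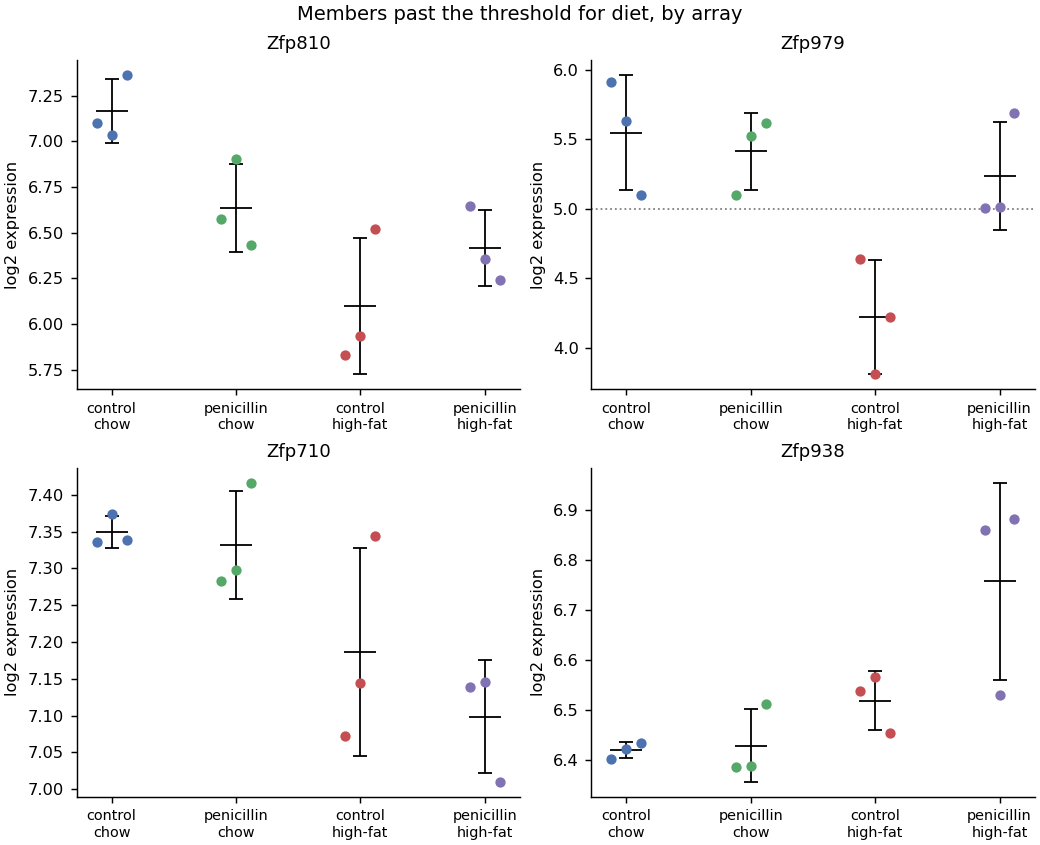
Log2 expression (vertical axis) of the 4 members called for diet, with 1 point for each array, the group mean as a horizontal bar and the SD of 3 arrays as a vertical bar. The dotted line in the panel of Zfp979 is the filter value of 5.0. The 3 control high-fat arrays of Zfp979 lie below it, from 3.81 to 4.63.

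The stretches before the annotated starts of these 4 genes are shown because they are the members called. They come from RefSeq, build GRCm38.p6, run 5′ to 3′ on the gene's strand, and lie outside the annotated gene. Capitals mark CCAAT on either strand, the box bound by the factor NF-Y. They are chr9:22307815-22307888 on the minus strand, chr4:147642509-147642758 on the minus strand, chr7:80024564-80024813 on the plus strand and chr10:82241281-82241530 on the minus strand.
Zfp810: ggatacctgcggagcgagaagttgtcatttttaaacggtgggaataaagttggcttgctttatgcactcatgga
Zfp979: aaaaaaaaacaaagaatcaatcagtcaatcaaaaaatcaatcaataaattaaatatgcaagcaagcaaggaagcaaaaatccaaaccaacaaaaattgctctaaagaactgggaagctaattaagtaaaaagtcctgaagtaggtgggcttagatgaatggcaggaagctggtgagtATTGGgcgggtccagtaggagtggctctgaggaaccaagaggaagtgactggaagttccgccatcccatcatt
Zfp710: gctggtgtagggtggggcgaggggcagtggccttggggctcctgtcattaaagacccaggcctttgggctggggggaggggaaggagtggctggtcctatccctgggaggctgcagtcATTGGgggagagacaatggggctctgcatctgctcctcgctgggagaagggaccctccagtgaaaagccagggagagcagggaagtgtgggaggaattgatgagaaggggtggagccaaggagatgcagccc
Zfp938: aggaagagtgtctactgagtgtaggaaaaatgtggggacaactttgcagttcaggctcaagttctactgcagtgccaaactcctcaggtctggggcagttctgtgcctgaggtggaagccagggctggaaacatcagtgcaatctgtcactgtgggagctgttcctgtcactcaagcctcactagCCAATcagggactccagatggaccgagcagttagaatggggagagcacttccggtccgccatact
The stretch of Zfp810 is 74 bases long and the others 250. The last base of the box lay 60 bases before the end in Zfp938, 68 in Zfp979 and 127 in Zfp710, and the stretch of Zfp810 held none. GC content was 39.6% in Zfp979, 53.2% in Zfp938 and 62.4% in Zfp710.

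Over the 250 bases before each annotated start, 86 of the 96 members had 103 entries in the RefSeq promoter table. CCAAT stood on either strand in 60.2% of them, against 33.9% of all 32841 promoters of 27018 genes in that table. Those genes were not selected by presence on the array or by gene type, and other numbered Zfp genes were not counted apart. Whether these shares are particular to the members was not tested. GGAAGT, the core that ETS factors read, stood in 34.0% against 19.7%, and TATAAA in 5.83% against 12.4%. The median number of CG pairs was 8 in members and 6 in all promoters, at a median GC content of 52.4% in both. TTCNNNGAA, the form read by STAT5, stood in 5.83% of member promoters and 7.02% of all. The repeat read by PPAR dimers, AGGTCA and again AGGTCA after 1 base of any kind, stood in 0 of the 103 and in 0.0335% of all promoters. Motifs were searched on both strands, a match is a stretch of letters and not a bound site, and starts of 1 gene can overlap.

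Other members had larger unadjusted differences on high-fat diet in control mice without being called. Zfp748 stood at 0.40 ± 0.12 (adjusted p = 0.140), with 6.18, 6.27 and 6.04 in control high-fat above 5.59, 5.88 and 5.81 in control chow. Zfp949 stood at 0.29 ± 0.11 and Zfp799 at -0.56 ± 0.24. For Zfp949, control chow 2 and 3 read 4.96 and 4.82, under the filter value of 5.0. Zfp995 stood at -0.28 ± 0.10, with only control high-fat 2 inside the range of control chow, while its other probe set stood at 0.17. In penicillin mice the members with the smallest p were Zfp938 at 0.33 ± 0.09 (adjusted p = 0.0506), Zfp958 at 0.40 ± 0.14, Zfp710 at -0.23 ± 0.08, Zfp944 at 0.33 ± 0.12, Zfp709 at 0.40 ± 0.16 and the splicing-associated gene Zfp830 at -0.19 ± 0.07. For Zfp709, penicillin chow read 4.90, 4.50 and 4.62, all under the filter value. Penicillin high-fat read 4.70, 5.16 and 5.37, the first of them also under it. Zfp709 was thus tested only through high-fat arrays, and its difference is measured against a group under the filter. Zfp944 gave 0.33 and 0.27 from its brighter probe sets, while the other probe sets of Zfp830 gave between -0.11 and -0.06. The call of Zfp938 in penicillin mice was made without penicillin high-fat 2, at 0.44 (adjusted p = 0.00799).

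The median diet difference of the 72 members was 0.02 in control mice and 0.07 in penicillin mice, against 0.00 and -0.01 for all genes, with 40 and 45 of 72 values above 0, and a shift of the group was not tested. Without regard to the fit, the 2 diet groups did not overlap for 12 members in control mice (16.7%, against 22.8% of all genes) and for 13 in penicillin mice (18.1%, against 28.0%). For 0 of the 72 members were all 6 high-fat arrays on 1 side of all 6 chow arrays, against 6.49% of all genes. The median deviation of members from their own means ranged from -0.08 in penicillin chow 2 to 0.06 in control chow 1.

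**Figure D3:**
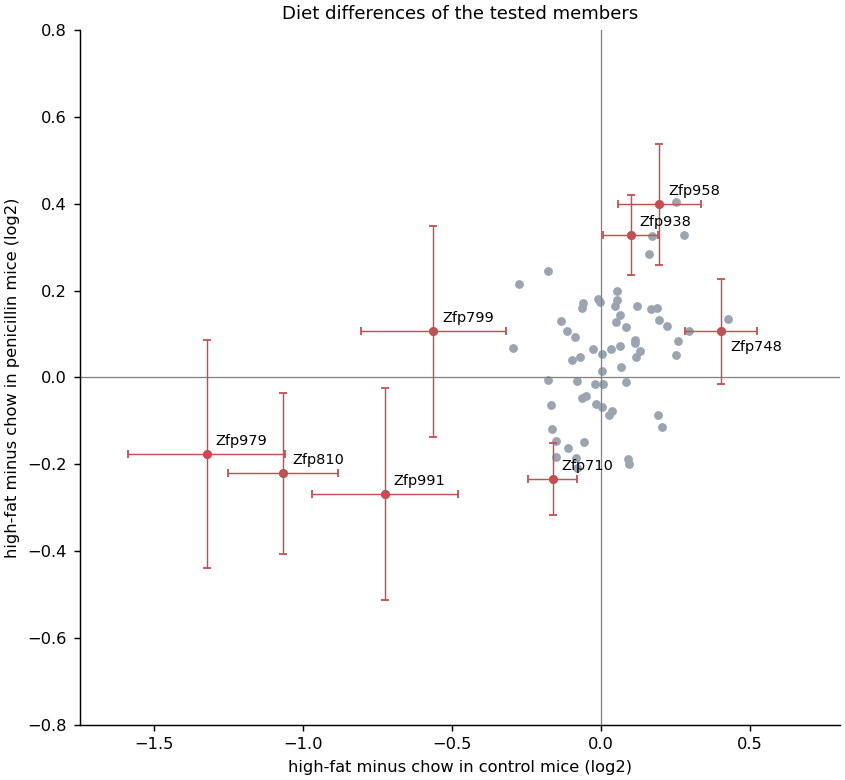
High-fat minus chow differences in log2 expression of the 72 tested members, in control mice (horizontal axis) and in penicillin mice (vertical axis), which are separate mice. Red points are named members with the standard errors of the fit. Zfp979, Zfp810 and Zfp991 lie far to the left, at -1.32, -1.07 and -0.73. Vertically they also lie below 0, by less, at -0.18, -0.22 and -0.27, and Zfp991 is the lowest of the tested members there.

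Many members are neighbours in the genome. In the order of protein-coding genes in RefSeq, 62 of the 96 members lay in 18 runs, in which neighbouring members had at most 5 other protein-coding genes between them. The longest run held 12 members, from Zfp948 to Zfp945, of which 11 were tested. Its median diet difference was 0.05 in control mice and 0.07 in penicillin mice, and 0 of the 11 were called in any comparison.

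A run of 3 neighbours, Zfp991, Zfp982 and Zfp979, held low values in control high-fat mice at several probe sets. The kept probe set of Zfp991 read 6.41, 6.44 and 6.97 in control chow and 6.40, 5.43 and 5.81 in control high-fat. It read 6.57, 7.0 and 6.83 in penicillin chow and 6.62, 6.16 and 6.81 in penicillin high-fat. In control mice the diet groups of Zfp991 did not overlap, and its difference of -0.73 ± 0.24 was not called (adjusted p = 0.182). A further probe set of Zfp991 stood at -0.90 in control mice and -0.48 in penicillin mice, while the dimmest, on average 4.04, stood at 0.08 and 0.05. All 3 probe sets of Zfp982 lay under the filter, and 2 of their names end in _x_at. The brighter of those 2 read 3.73, 3.47 and 3.31 in control high-fat, 4.14, 3.83 and 4.09 in control chow and 4.34, 4.01 and 4.69 in penicillin high-fat. The dimmer stood at -0.21 for diet in control mice, and the kept probe set of Zfp982 at 0.15. The suffix _x_at marks probes that may also bind other transcripts, and signal shared between related neighbours was not tested.

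**Figure D4:**
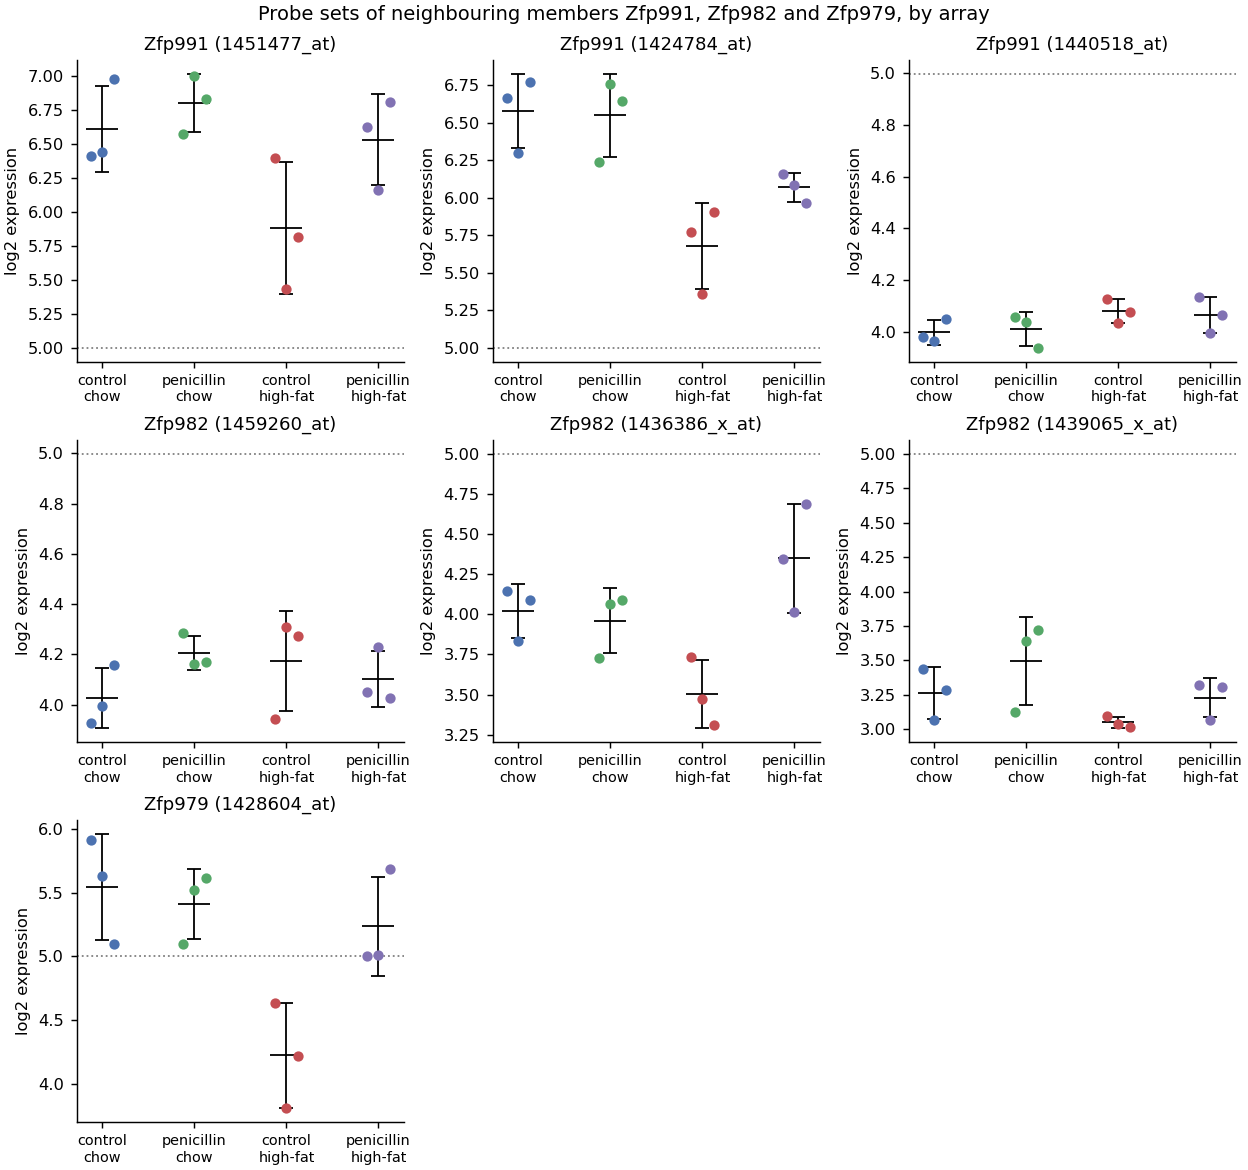
Log2 expression (vertical axis) at all 7 probe sets of the neighbouring genes Zfp991, Zfp982 and Zfp979, with 1 point for each array, the group mean as a horizontal bar, the SD of 3 arrays as a vertical bar and the filter value of 5.0 dotted. In 5 panels the control high-fat mean is the lowest of the 4 groups. The dimmest set of Zfp991 and the brightest of Zfp982 do not show this.

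The neighbours Zfp809 and Zfp810 did not move alike. Zfp810 fell in control mice as given above, and the diet difference of Zfp809 there was 0.09. Of the tested members' kept probe sets 8.33% end in _x_at or _s_at, against 10.4% for all tested genes. All 6 of these member probe sets end in _x_at, and the share of _x_at alone was not counted for all genes. The kept probe sets of the 4 members called for diet end in neither suffix.

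Penicillin changed 0 of 72 members on chow in limma's test, and 7 had an unadjusted p under 0.05, where 0.00725% of all genes were called and 7.62% had such a p. On high-fat diet penicillin changed 0 of 72, with 5 under an unadjusted p of 0.05, where 0.341% of all genes were called and 10.1% had such a p. Averaged over diets it changed 0 of 72, with 9 under an unadjusted p of 0.05, where 0.145% of all genes were called and 11.9% had such a p. The member nearest to a call on chow was Zfp959, at 0.33 ± 0.09 (adjusted p = 0.442). It read 7.46, 7.39 and 7.50 in penicillin chow against 7.26, 7.18 and 6.95 in control chow, so the groups did not overlap. On high-fat diet its arrays overlapped, at 7.27, 7.42 and 7.41 against 7.32, 7.32 and 7.31.

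Members that stood lower in penicillin mice on chow were Zfp799 at -0.73 ± 0.24, Zfp810 at -0.53 ± 0.18, Zfp759 at -0.40 ± 0.15, Zfp994 at -0.29 ± 0.12, Zfp995 at -0.28 ± 0.10 and Zfp704 at -0.24 ± 0.08, with adjusted p from 0.544 to 0.618. Zfp799 read 6.83, 6.98 and 6.81 in control chow and 6.16, 6.51 and 5.76 in penicillin chow. Of the chow arrays of Zfp759 only control chow 1, at 5.30, exceeded the filter value of 5.0. Control chow 2 and 3 read 4.88 and 4.81 and penicillin chow 4.77, 4.53 and 4.48, so the difference of Zfp759 lies largely under the filter. The other probe set of Zfp704 stood at -0.36 and that of Zfp995 at 0.05. On chow the groups did not overlap for 12 members (16.7%, against 11.8% of all genes), 2 of them higher (4.79% of all genes) and 10 lower (7.04%). In the same comparison 0 of 8 macrophage markers, 0 of 7 sinusoidal endothelial markers and 2 of 7 stellate cell markers were above 0, with medians of -0.53, -0.28 and -0.40. None of these markers was called, and 7, 3 and 4 of them had an unadjusted p under 0.05 (7.62% of all genes). Their part in the members' values was not tested. Penicillin chow 2 and 3 and penicillin high-fat 2 had a low 18S ribosomal control signal of 11.8 each, against 12.7 to 13.9 on the other arrays, whose part in these values was not tested. Without those 3 arrays penicillin chow 1 is the only penicillin array left on that diet. The fit then takes the spread of that arm from the other groups, so its differences on chow rest on 1 array. On that array Zfp763 read 5.55, against 6.34 and 6.20 in penicillin chow 2 and 3 and 6.39, 6.39 and 6.26 in control chow.

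On high-fat diet Zfp979 stood 1.01 ± 0.26 higher in penicillin mice as measured (adjusted p = 0.159), and its groups did not overlap. Control high-fat lay under the filter on all 3 arrays, and against the filter value penicillin high-fat was at least 1.18-fold higher. Array weights, which give discordant arrays less influence, brought it to 1.20 (adjusted p = 0.0369). Its neighbour Zfp991 stood at 0.65 ± 0.24 (adjusted p = 0.377), with an overlap of control high-fat 1 at 6.40 with penicillin high-fat 2 at 6.16. Zfp938 stood at 0.24 ± 0.09, Zfp948 at 0.40 ± 0.18, Zfp748 at -0.28 ± 0.12 and Zfp707 at -0.24 ± 0.11. For Zfp707 the other probe set gave -0.29. The diet comparison in control mice and the penicillin comparison on high-fat diet share the control high-fat arrays, so the opposite signs of Zfp979 and Zfp991 in them are not separate observations. On high-fat diet the groups did not overlap for 6 members (8.33%, against 17.3% of all genes).

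Averaged over diets, the smallest p were those of Zfp959 at 0.19 ± 0.06, Zfp948 at 0.38 ± 0.12, Zfp994 at -0.23 ± 0.08, Zfp759 at -0.29 ± 0.10, Zfp991 at 0.42 ± 0.17 and Zfp979 at 0.44 ± 0.19, with adjusted p from 0.252 to 0.379. Zfp948 read 4.84, 5.18 and 4.85 in control chow and 5.70, 5.19 and 5.04 in penicillin chow. On high-fat diet it read 5.43, 5.07 and 5.20 in control and 5.53, 5.90 and 5.48 in penicillin mice. The groups of Zfp948 did not overlap on high-fat diet and overlapped on chow. The median of members was -0.03 on chow and 0.00 on high-fat diet, against -0.01 and 0.00 for all genes.

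**Figure D5:**
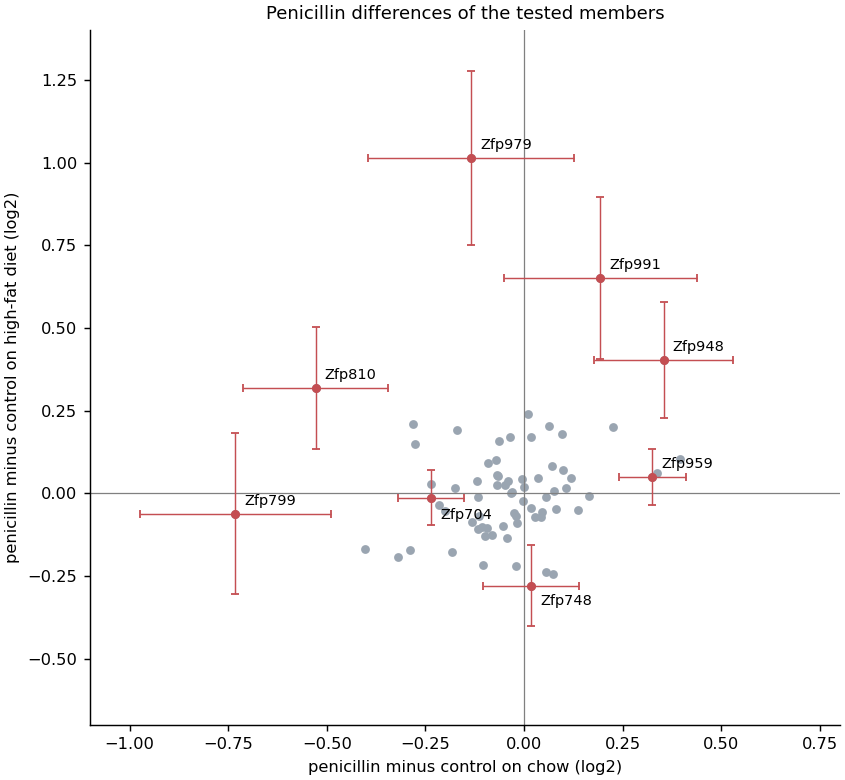
Penicillin minus control differences in log2 expression of the 72 tested members, on chow (horizontal axis) and on high-fat diet (vertical axis), which are separate mice. Red points are named members with the standard errors of the fit, and none passed the threshold. Zfp979 is the highest point, at 1.01 on high-fat diet, and Zfp799 the leftmost, at -0.73 on chow.

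The interaction, the penicillin effect on high-fat diet minus that on chow, was called for 0 of 72 members, with 5 under an unadjusted p of 0.05, where 0.0435% of all genes were called and 6.11% had such a p. Zfp995 stood at 0.49 ± 0.14, Zfp810 at 0.85 ± 0.26 and Zfp979 at 1.15 ± 0.37, with adjusted p of 0.543, 0.576 and 0.628. The diet effects on Zfp810 and Zfp979 were thus called in control mice and not in penicillin mice, and are not shown to differ between them. Zfp959 stood at -0.28 ± 0.12, Zfp931 at 0.43 ± 0.19 and Zfp707 at -0.32 ± 0.16. Zfp995 read 7.58, 7.31 and 7.33 in control chow and 7.06, 7.08 and 7.24 in penicillin chow. On high-fat diet it read 7.06, 7.31 and 7.02 in control and 7.42, 7.33 and 7.27 in penicillin mice. Control and penicillin arrays of Zfp995 overlapped on high-fat diet and not on chow. With the mean of both its probe sets the interaction of Zfp995 was 0.24 (adjusted p = 0.852).

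Of 209 numbered Zfp genes below 700, 173 were tested, and averaged over treatments the diet changed 13, 9 higher and 4 lower, which is 7.51% against 5.56% of the members and 14.5% of all genes. In control mice 0 of the 173 were called (0.899% of all genes), with 23 under an unadjusted p of 0.05, whose share over all genes was not counted. In penicillin mice 8 were called (4.62%, against 8.32% of all genes), 6 higher and 2 lower. Of the 72 members 2 and 0 were called. The difference between both sets was not tested. Among the 13 were Zfp120, which rose by 0.45 ± 0.07, and Zfp53 and Zfp51, which rose by 0.63 ± 0.12 and 0.49 ± 0.10. Zfp612 fell by 0.60 ± 0.13.

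A list of KRAB corepressor and heterochromatin genes, which also held relatives of Trim28, had 28 genes measured and 26 tested. Averaged over treatments the high-fat diet changed 6 of the 26, 5 lower and 1 higher (23.1%, against 14.5% of all genes). Their median was -0.09, against -0.01 for all genes. Trim28, the KRAB corepressor, fell by 0.21 ± 0.05 (adjusted p = 0.0182), and Setdb1, which methylates histone H3, by 0.28 ± 0.07 (adjusted p = 0.0220). Chd4, a remodelling ATPase of the NuRD complex, fell by 0.30 ± 0.05, Pphln1, a subunit of the HUSH silencing complex, by 0.30 ± 0.06 and the methyltransferase Ehmt1 by 0.25 ± 0.07. Trim24, a relative of Trim28, rose by 0.61 ± 0.17. In control mice 0 of the 26 were called, against 0.899% of all genes. There 6 were under an unadjusted p of 0.05, whose share over all genes was not counted. In penicillin mice 1 was called (3.85%, against 8.32% of all genes), Rbbp4, which fell by 0.28 ± 0.07, and 10 had such a p (24.5% of all genes). Penicillin changed 0 of the 26 on chow and 0 on high-fat diet, against 0.00725% and 0.341% of all genes. Under an unadjusted p of 0.05 were 1 and 3, against 7.62% and 10.1% of all genes.

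The samples are whole liver, and fewer cells of a type and less RNA per cell cannot be told apart in them. The 6 hepatocyte markers measured averaged from 13.0 to 13.3 on all arrays, and 1 of them was called for averaged diet, Cps1, which fell by 0.26 ± 0.06 (adjusted p = 0.0125). Markers of Kupffer cells and macrophages rose with the diet: 7 of 8 were called higher averaged over treatments. Their mean lay from 9.36 to 9.48 in control chow, 8.62 to 9.22 in penicillin chow, 9.81 to 9.95 in control high-fat and 9.32 to 9.99 in penicillin high-fat. Of 7 sinusoidal endothelial markers 5 were called higher and of 7 stellate cell markers 4. Of the tested markers of B cells (2), T and NK cells (4), cholangiocytes (3) and pancreatic acinar cells (1), limma called 0 for averaged diet. Under an unadjusted p of 0.05 were 2, 0, 1 and 0, and the share of all genes with such a p was not counted. The part of these cells in the diet differences of Zfp810, Zfp979, Zfp710 and Zfp938 was not tested. Without the 3 arrays of low 18S signal, the averaged diet difference of Zfp810 was -0.60 (adjusted p = 0.0539) and that of Zfp979 was -0.54 (adjusted p = 0.187). Zfp710 then stood at -0.19 and was not called, and Zfp938 stood at 0.29. Penicillin chow was then penicillin chow 1 alone, so that arm of these differences rests on 1 array. Penicillin chow 1 held the lowest value of 12 tested members and control chow 3 of 14, against 16% and 8.30% of all tested genes.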

How the data were processed

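The authors deposited log2 expression values of 45101 probe sets for each of the 12 arrays. The submitters' processing notes name RMA and affy; their versions were not stated in these sources. RMA, as commonly run, corrects background, equalises the distribution of probe intensities between arrays and gives 1 log2 value for each probe set, so every change is relative to the other genes. Gene symbols came from the platform annotation held by GEO, and 932 with several symbols, 9160 with none and 64 controls were left out, 17 of the former with a symbol in the range. All 96 members had a gene ID in RefSeq and 0 symbols changed. Group means were fitted with limma 3.58.1 in R 4.3.3 on all 12 arrays (8 residual degrees of freedom) and 13788 genes, with eBayes and Benjamini-Hochberg adjustment. The fit was also run on simulated data with independent noise. Smaller changes were planted too, but the pass mark on recovery covered only changes larger than those of the called members. How well changes of their size were recovered is not given here. Arrays have no depth, and their number limits precision: the p-values rest on how much these mice varied. Within a group arrays correlated at 0.991 to 0.996. Named members are those called, else the 6 with the smallest p in a comparison, the 6 brightest, those at the edge of the filter and members with a known role. The members, lists and tests were chosen with earlier results of these data known. Alternatives changed the filter, probe set, normalization, weights, variance model, arrays and covariates.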

Additional observations from a re-analysis of the deposited data

How the results depend on the processing

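The 42 named differences gave 930 values under the alternatives. Of these, 857 kept their direction and side of the threshold, 54 lost and 18 gained a call, and 1 reversed. Most of the 42 were not called in the main fit and had no call to lose. All 54 losses fell on the diet calls of Zfp810, Zfp979, Zfp710 and Zfp938, so 857 does not measure how stable those calls are. The value that reversed was the interaction of Zfp707, at 0.017 without the 3 arrays of low 18S signal, where the cause was not tested. The 2 members called for diet in control mice became 1 with the filter at the 60th percentile, cyclic loess, trend and robust variance, a fit of the 6 arrays alone, or without the 3 low 18S arrays, and 0 with the replicate block. In penicillin mice the 0 became 1 with the 60th percentile, cyclic loess, median centring or the replicate block, 2 with the mean of all probe sets or array weights, and 3 without the low 18S arrays. The 4 averaged over treatments became 2 with no filter, trend and robust variance or the 18S covariate, and 7 with array weights. Counts in this section are of members alone, without the share of all genes called under the same alternative. They do not set the members apart from other genes. The 2 that differed among the 4 groups became 1 with the 60th percentile or the replicate block, 4 with array weights and 5 without the low 18S arrays. For penicillin the 0 became 1 on chow without the low 18S arrays and 1 on high-fat diet with array weights. Averaged over diets it became 1 with the 18S covariate and 3 without the low 18S arrays. Leaving out 1 array gave 0 to 2 for diet in control mice, 0 to 2 in penicillin mice, 2 to 5 averaged and 0 to 3 for any difference, and 0 throughout for penicillin and the interaction. Same-numbered arrays did not pair: their deviations correlated over 0.1 in 3 of 18 pairs, and 2 of 12 arrays correlated best with their own number, so the replicate block is a check only. Without the low 18S arrays 3 members were called for averaged diet, of which only Zfp938 is among the 4, and penicillin chow was then 1 array, assumed to vary like the other groups. Under the block the averaged count was 3 and the penicillin and interaction counts 0. A median within-group SD of 0.16 on 3 arrays limits what small changes could be called.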
